A study of Mus musculus with 2 samples.

Results

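Cntfr, Il6st, Lifr, Osmr, Clcf1, Lif, Stat3 and Socs3, genes of the CNTF receptor and of gp130 cytokine signalling, were followed in ureter RNA of mouse embryos. These 8 genes, of 31870 gene names on the array, were represented by 12 probes. They were taken by the gene name in the array files, and matching probe accessions to RefSeq added 0 further probes. Cntfr was chosen by its large Gata2cKO over control ratio at 1 of its 2 probes on these arrays, so its values are a description without a test. The other genes, encoding receptor chains and ligands of gp130 signalling, Stat3 and its target Socs3, were added for their place in the pathway. RNA of dissected ureters of NMRI embryos at E14.5 was compared on 2 two-colour Agilent arrays. The RNA labelled Gata2cKO came from Tbx18(cre/+);Gata2(fl/fl) embryos, with 1 Cre allele at Tbx18, which is active in ureteric mesenchyme, and both copies of the transcription factor gene Gata2 flanked by loxP. Control RNA came from Tbx18(+/+);Gata2(fl/?) embryos, which had no Cre, kept both Tbx18 alleles and carried at least 1 loxP-flanked Gata2 allele. On array 1 both RNAs were female, with Gata2cKO in Alexa Fluor 647 and control in 555, and on array 2 both were male with the dyes exchanged. The labels do not give the number of embryos behind an RNA, so the spread between arrays may be partly technical. Sex and dye orientation changed together and cannot be told apart, nor can the loss of Gata2 from Cre and the altered Tbx18 allele.

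The cytokines of the interleukin-6 family signal through gp130, the product of Il6st, which pairs with a second receptor chain. Cntfr encodes a receptor that is held to the membrane by a lipid anchor and has no signalling domain of its own. It binds ciliary neurotrophic factor or the cytokine Clcf1, and signals through gp130 and the LIF receptor encoded by Lifr. Bound receptors activate Janus kinases, which phosphorylate Stat3, and Stat3 induces Socs3, a feedback inhibitor of gp130. Cntfr is best known from neurons and skeletal muscle.

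The array did not show less Gata2 in RNA labelled Gata2cKO. The Gata2 probe, on chromosome 6 from 88156362 to 88156421 (mm9), had log2 ratios of Gata2cKO over control of 0.33 on array 1 and 0.54 on array 2 (mean 0.44 ± 0.153, SD, n = 2; limma adjusted p = 0.416). Whether this probe lies in the deleted part is not given in the labels, so it does not check them, and each direction below rests on the dyes in the labels. Tbx18 had 0.65 and 0.15 (limma adjusted p = 0.666). The share of the 39429 probes that were well above background lay between 65.0% and 68.5% per RNA and array, and 25659 probes were tested. Every marker gene fixed for neurons and glia, smooth muscle, macrophages, endothelium, urothelium, skeletal muscle and ureteric mesenchyme had at least 1 probe among them.

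The 2 Cntfr probes read different transcripts, and their sequences are shown because their ratios differed. The order of their coordinates places Cntfr on the minus strand. The downstream probe (A_55_P2133007) lies on chromosome 4 from 41604532 to 41604591 (mm9) and is annotated to transcript variant 2 and 1 further transcript. The upstream probe (A_55_P2133013) lies 12224 bases away, from 41616756 to 41616815, and is annotated to transcript variant 3 alone, whose accession did not match the RefSeq table of GRCm38.p6. Bases 1 to 30 of the 60 bases of each probe are printed 5′ to 3′, with runs of 3 or more G in capitals.
Cntfr downstream: tagatgtatatacatGGGaGGGaGGGGtag
Cntfr upstream: taaagacaagctgtttagttttcaactgat

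The whole downstream probe holds 4 such runs and the upstream probe 0. GC content was similar, at 43.3% and 45%. An annotation of mm9 was not used here, so exons and untranslated regions were not assigned.

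Cntfr was higher in the RNA labelled Gata2cKO at its downstream probe on both arrays. Normalized intensity there was 4028 in Gata2cKO RNA and 1431 in control RNA on array 1, and 3282 in Gata2cKO RNA and 1097 in control RNA on array 2. The ratio within an array was 2.82-fold on array 1 and 2.99-fold on array 2, a mean log2 ratio of 1.54 ± 0.0618 (SD, n = 2). Before normalization, the mean spot signal on array 1 was 5295 for Gata2cKO over a local background of 67, and 1057 for control over 23.5. On array 2 it was 2465 for Gata2cKO over 28, and 1452 for control over 66, although control RNA then carried the brighter dye. Ranked from the highest ratio down, this probe stood at place 14 on array 1 and 13 on array 2 among the 25659 tested. Cntfr was chosen by this ratio, so a high place was given by the choice.

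At the upstream Cntfr probe the RNAs were close. Its intensity was 1752 in Gata2cKO and 1439 in control RNA on array 1, and 1708 in Gata2cKO and 1684 in control RNA on array 2. The log2 ratios of 0.28 and 0.020 averaged 0.15 ± 0.187 (SD, n = 2). Both probes were well above background in both RNAs on both arrays. The mean of the 2 probes was a log2 ratio of 0.84.

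**Figure D1:**
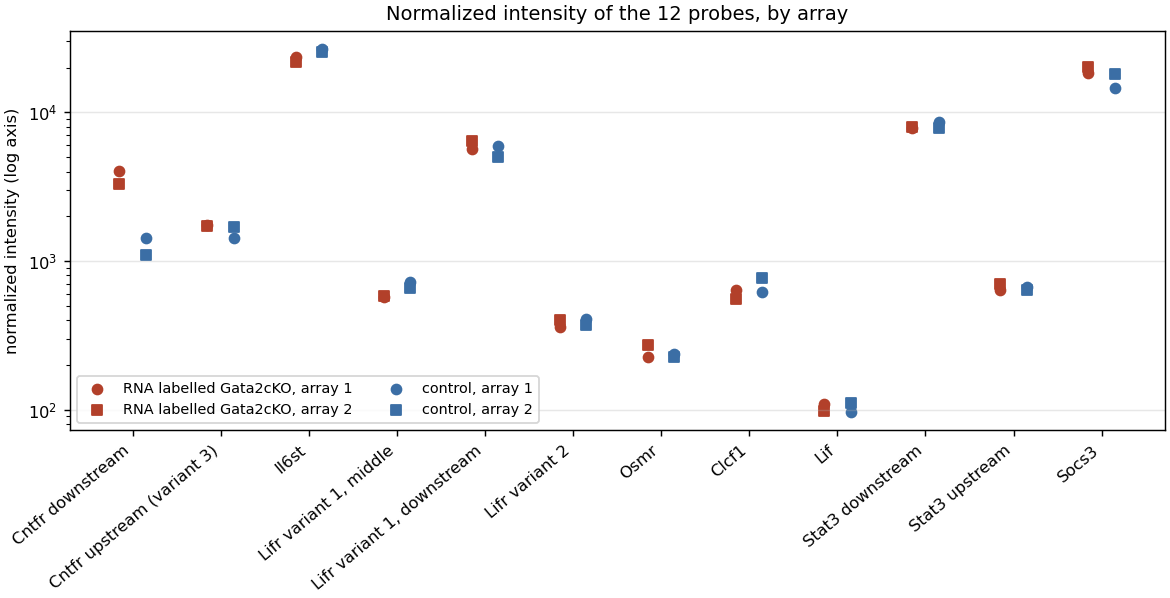
Normalized intensity (log axis) of each of the 12 probes in RNA labelled Gata2cKO (red, left) and control RNA (blue, right) on array 1 (circles) and array 2 (squares). The downstream Cntfr probe alone shows a wide gap, with 4028 and 3282 in Gata2cKO RNA against 1431 and 1097 in control RNA, and heights of different probes are not comparable.

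The value table that the authors deposited for the same arrays placed the Cntfr probes the other way round. In the authors' deposited table the downstream probe had log2 ratios of -0.26 for array 1 and 0.0078 for array 2. The upstream probe had 0.48 and 0.42 in that table. The scanner software's own processed signals gave 1.53 and 1.70 for the downstream probe and 0.29 and 0.053 for the upstream probe, close to the values above. The sources used here do not say how the deposited table was made. Across tested probes its columns correlated with the scanner ratios at r = 0.498 for array 1 and 0.423 for array 2, which is across probes and not across replicates. The direction of the table was taken from the sign of these correlations.

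**Figure D2:**
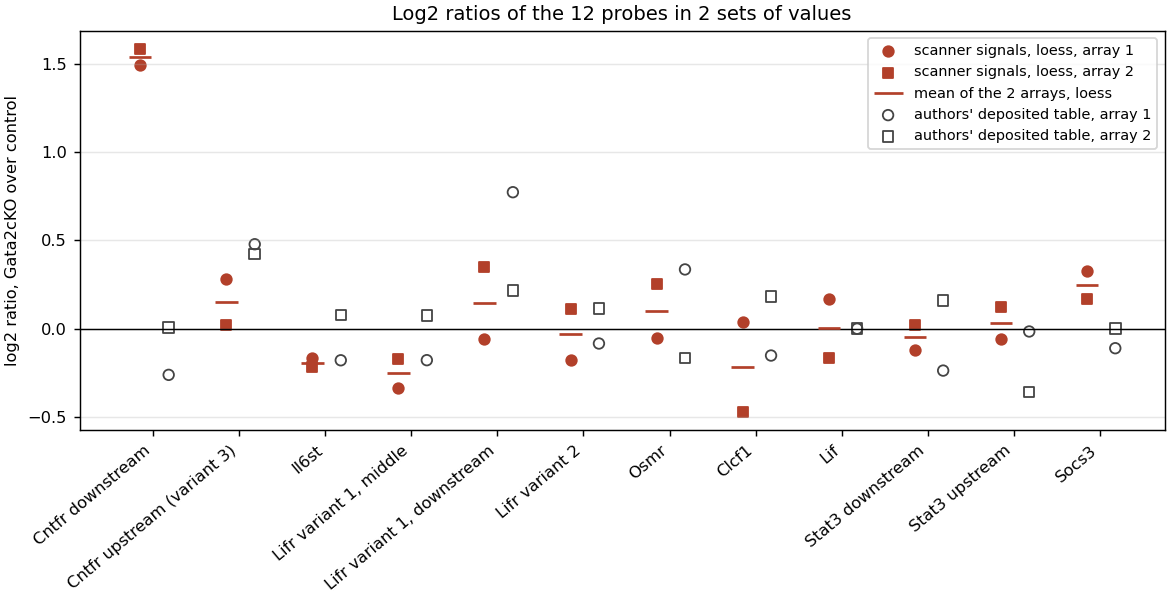
Log2 ratio of Gata2cKO over control for each of the 12 probes from the scanner signals (filled, with a bar at the mean of the 2 arrays) and from the authors' deposited table (open), with array 1 as circles and array 2 as squares. The downstream Cntfr probe stands at 1.49 and 1.58 from the scanner signals and at -0.26 and 0.0078 in the deposited table. Lif was not well above background, so its points carry no measured ratio.

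The genes with the pair of ratios most like the downstream Cntfr probe were found by Euclidean distance over the 2 log2 ratios. The nearest was Lrriq1, which encodes a leucine-rich repeat protein, with 1.42 and 1.57 (distance 0.0717). Next were the serotonin receptor gene Htr2b (1.45 and 1.74), the vasopressin receptor gene Avpr1a (1.31 and 1.70), the homeobox gene Alx1 (1.31 and 1.31) and Kcnip1, whose product binds potassium channels (1.46 and 1.22, distance 0.365). With 2 arrays this likeness says only that the sizes were similar. Across all tested probes the arrays correlated at r = 0.0498, and the plot of the arrays shows an arm of probes that were high on array 1 and low on array 2. The downstream Cntfr probe lay outside that arm, a place largely given by its choice for a large ratio. In the authors' deposited table these 5 probes all kept positive values, from 1.31 (Kcnip1, array 1) to 2.48 (Htr2b and Avpr1a, array 2), whereas the downstream Cntfr probe did not. The 3 probes of other genes that lie within 25 kb of the Cntfr probes, of Enho and Dnaic1, had log2 ratios between -0.051 and -0.14 on the arrays.

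**Figure D3:**
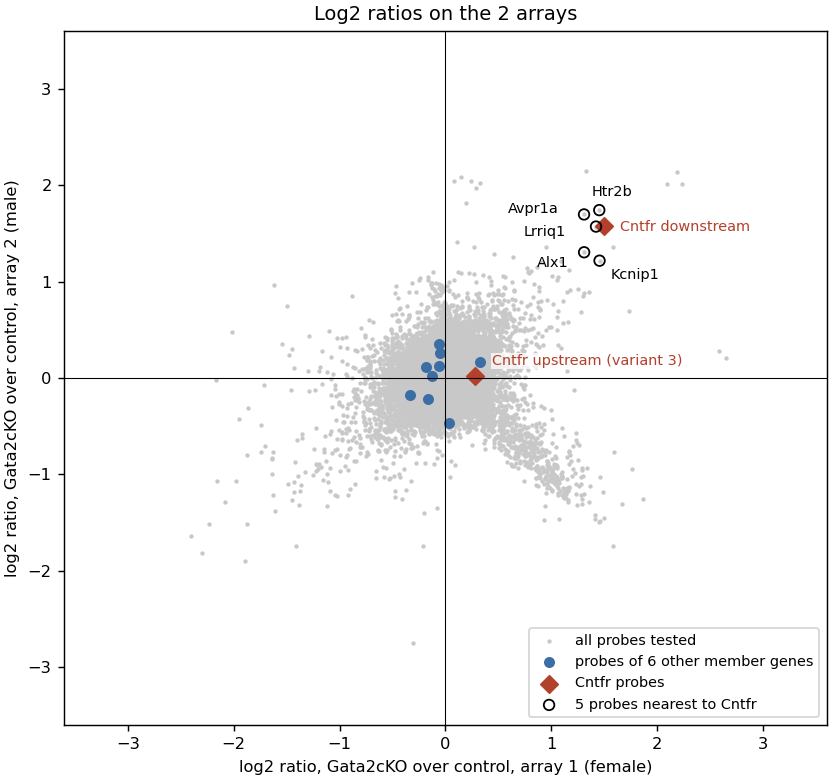
Log2 ratio of Gata2cKO over control on array 1 (x axis, female) against array 2 (y axis, male) for all 25659 probes tested (grey), the 9 tested probes of the other member genes (blue), the 2 Cntfr probes (red diamonds) and the 5 probes nearest to the downstream Cntfr probe (open circles). The downstream Cntfr probe lies among these 5 at the upper right, and the other member probes lie within the main cloud.

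Of the other 7 genes, 6 were tested, with 9 probes, and 0 of these probes passed an adjusted p of 0.05 (limma, two-sided, Benjamini-Hochberg over all probes tested). Over all probes 15 passed, or 0.0585%, with 0.0312% higher in the RNA labelled Gata2cKO and 0.0273% lower there. An unadjusted p under 0.05 was reached by 0 of the 9, against 7.08% of all probes. A ratio of 1.5-fold or more in the same direction on each array was found for 0 of the 9, against 0.698% of all probes (0.285% higher, 0.413% lower). The arrays shared a direction for 3 of the 9, against 53.2% of all probes. Of these, 1 was higher on both arrays, against 26.5% of all probes, and 2 were lower on both, against 26.7%. Their median log2 ratio was -0.033, beside 0.00045 over all probes tested.

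The coreceptor genes Il6st and Lifr did not pass at any probe, and so few arrays cannot show that the RNAs were equal. Il6st, which encodes gp130, had intensities of 23636 and 21843 in Gata2cKO RNA, against 26542 and 25368 in control RNA. Gata2cKO was the lower RNA on each array, as for 26.7% of all probes tested. The log2 ratios of -0.17 and -0.22 averaged -0.19 ± 0.0344 (SD, n = 2; limma adjusted p = 0.804), and its 95% interval ran from -0.45 to 0.070. Il6st lies on chromosome 13, and the probe of its neighbour Il31ra, the interleukin-31 receptor gene, had -0.15 and -0.097 (limma adjusted p = 0.893).

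Lifr is read by 3 probes on chromosome 15, on the plus strand by the order of their coordinates. They are shown because they separate transcript variants. The probe at 7135072 to 7135131 is annotated to variant 2 alone, while those at 7141150 to 7141209 and 7147319 to 7147378 are annotated to variant 1 (mm9). Bases 1 to 30 of each are given, with runs of 3 or more G in capitals, of which these stretches hold none.
Lifr variant 2: taaaaacttggaaatgtatccaggcctaac
Lifr variant 1, middle: agaacaaaccaaatgactaaccaggtcacc
Lifr variant 1, downstream: catagatgatgtaaatagcctaagacactg

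The variant 2 probe had intensities of 358 and 399 in Gata2cKO RNA, against 406 and 369 in control RNA, and the arrays differed in direction (mean log2 ratio -0.033 ± 0.207, SD, n = 2; limma adjusted p = 0.991). The middle variant 1 probe had 576 and 583 in Gata2cKO RNA, against 727 and 657 in control RNA. It was lower on both arrays, by log2 ratios of -0.33 and -0.17, and did not pass (mean -0.25 ± 0.114, SD, n = 2; limma adjusted p = 0.730; 95% interval -0.53 to 0.020). The downstream variant 1 probe had 5675 and 6384 in Gata2cKO RNA, against 5914 and 5004 in control RNA. Its ratios had opposite signs on the arrays, -0.060 and 0.35 (mean 0.15 ± 0.291, SD, n = 2; limma adjusted p = 0.907). The probe means of Lifr spanned 0.40 on the log2 scale, with the variant 1 probes at either end and the variant 2 probe between them.

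Osmr, the receptor chain that pairs with gp130 for oncostatin M, gave a dim signal. Its intensities were 227 and 271 in Gata2cKO RNA, against 236 and 227 in control RNA, well above background in both. The log2 ratios were -0.055 and 0.26, and their mean of 0.10 did not pass (SD 0.219, n = 2; limma adjusted p = 0.948).

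Among the ligand genes, Clcf1, whose product binds the CNTF receptor, had intensities of 639 and 556 in Gata2cKO RNA, against 623 and 771 in control RNA. The groups overlapped. The ratio was 0.036 on array 1 and -0.47 on array 2, and its mean of -0.22 ± 0.359 (SD, n = 2) did not pass (limma adjusted p = 0.848; 95% interval -0.59 to 0.15). Lif, the leukaemia inhibitory factor gene, was not well above background in either RNA on either array, so it has no fold and was not tested. Its intensities were 108 and 98.6 in Gata2cKO RNA, against 96.5 and 111 in control RNA.

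Stat3, the transcription factor of this pathway, had small mean log2 ratios at both of its probes on chromosome 11. The downstream probe, from 100749598 to 100749657 (mm9), was printed in 10 spots on each array. Its mean intensities were 7870 and 7991 in Gata2cKO RNA, against 8568 and 7861 in control RNA. The 10 spots had log2 ratios between -0.16 and -0.086 on array 1 (SD 0.0241) and between -0.0037 and 0.080 on array 2 (SD 0.0258), so the arrays differed by more than the spots of an array. The means of -0.12 and 0.024 averaged -0.049 ± 0.103 (SD, n = 2; limma adjusted p = 0.982; 95% interval -0.32 to 0.22). The upstream probe, from 100759946 to 100760005, had 639 and 699 in Gata2cKO RNA, against 666 and 641 in control RNA, with log2 ratios of -0.059 and 0.13 (limma adjusted p = 0.991).

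Socs3, the feedback inhibitor that Stat3 induces, was the member besides Cntfr with the highest mean ratio. Its intensities were 18395 and 20264 in Gata2cKO RNA, against 14698 and 18016 in control RNA. Gata2cKO was the higher RNA on each array, as for 26.5% of all probes tested. The log2 ratios of 0.32 and 0.17 averaged 0.25 ± 0.109 (SD, n = 2), or 1.19-fold, and did not pass (limma adjusted p = 0.742; 95% interval -0.026 to 0.52). In the authors' deposited table Socs3 had -0.11 and 0.000665.

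The wider pathway was described with a list of 47 other genes, of which 41 had at least 1 of 56 tested probes. By limma over all probes, 0 of the 56 probes passed in either direction, against 0.0585% of all probes. On both arrays 14 were higher and 20 lower, against 26.5% and 26.7% of all probes. The other 22 had opposite signs, against 12003 of the 25659 probes tested. The counts by role below are to be read beside the same shares. The median log2 ratio of the 56 was -0.027, beside 0.00045 over all probes, and 0 reached 1.5-fold in a shared direction. An unadjusted p under 0.05 was reached by 7 of the 56, against 7.08% of all probes. These 7 probes, of Socs2, Ebi3, Il6ra, Jak3 and Cebpd, were all lower in the RNA labelled Gata2cKO.

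The lowest mean ratios of the list were those of Socs2. This inhibitor of cytokine and growth hormone signalling was lower at each of its 3 probes on both arrays, with -0.65, -0.86 and -0.83 on array 1 and -0.34, -0.23 and -0.23 on array 2. The means were -0.50, -0.54 and -0.53, and none passed (limma adjusted p = 0.371, 0.545 and 0.547). These probes read 1 gene in the same RNAs and are not replicates of each other. The 13 inhibitor probes had a median of -0.054, with 2 higher and 6 lower on both arrays.

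Of the other ligand genes, Cntf, which encodes ciliary neurotrophic factor, was at -0.014 and 0.053 at 1 probe and -0.083 and 0.35 at the other. The ligand subunit gene Ebi3 was at -0.26 and -0.39 (limma adjusted p = 0.613). Il6, Osm, Ctf2 and Il31 did not reach the detection filter. Among receptors, Il6ra, the interleukin-6 receptor gene, was at -0.30 and -0.28 (limma adjusted p = 0.648), and Il11ra1, the interleukin-11 receptor gene, at 0.079 and 0.17. Near-identical copies of Il11ra1 exist in the mouse, so its signal is uncertain.

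Of the Janus kinase genes, Jak1 was at -0.081 and 0.18, and Jak2 at 0.026 and 0.51, so for both the arrays differed by more than their mean. Jak3, best known from lymphocytes, was at -0.30 and -0.32 at the probe with the mean farther from 0 (limma adjusted p = 0.615). The 5 kinase probes had a median of -0.18, the lowest of the roles, with 1 higher and 3 lower on both arrays. That median is the mean of the other Jak3 probe, and the lower probes were those of Jak3 and of Tyk2 (-0.50 and -0.00088). Among other transcription factors of the family, the Stat6 probe with the mean farthest from 0 was at -0.20 and -0.011 (limma adjusted p = 0.934), and the target gene Gfap did not reach the detection filter. Of the target genes, Cebpd, which encodes a transcription factor that Stat3 induces, was at -0.20 and -0.39 (limma adjusted p = 0.680). The 13 target probes had a median of 0.052, with 5 higher and 3 lower on both arrays, and the 5 adaptor probes a median of 0.021.

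**Figure D4:**
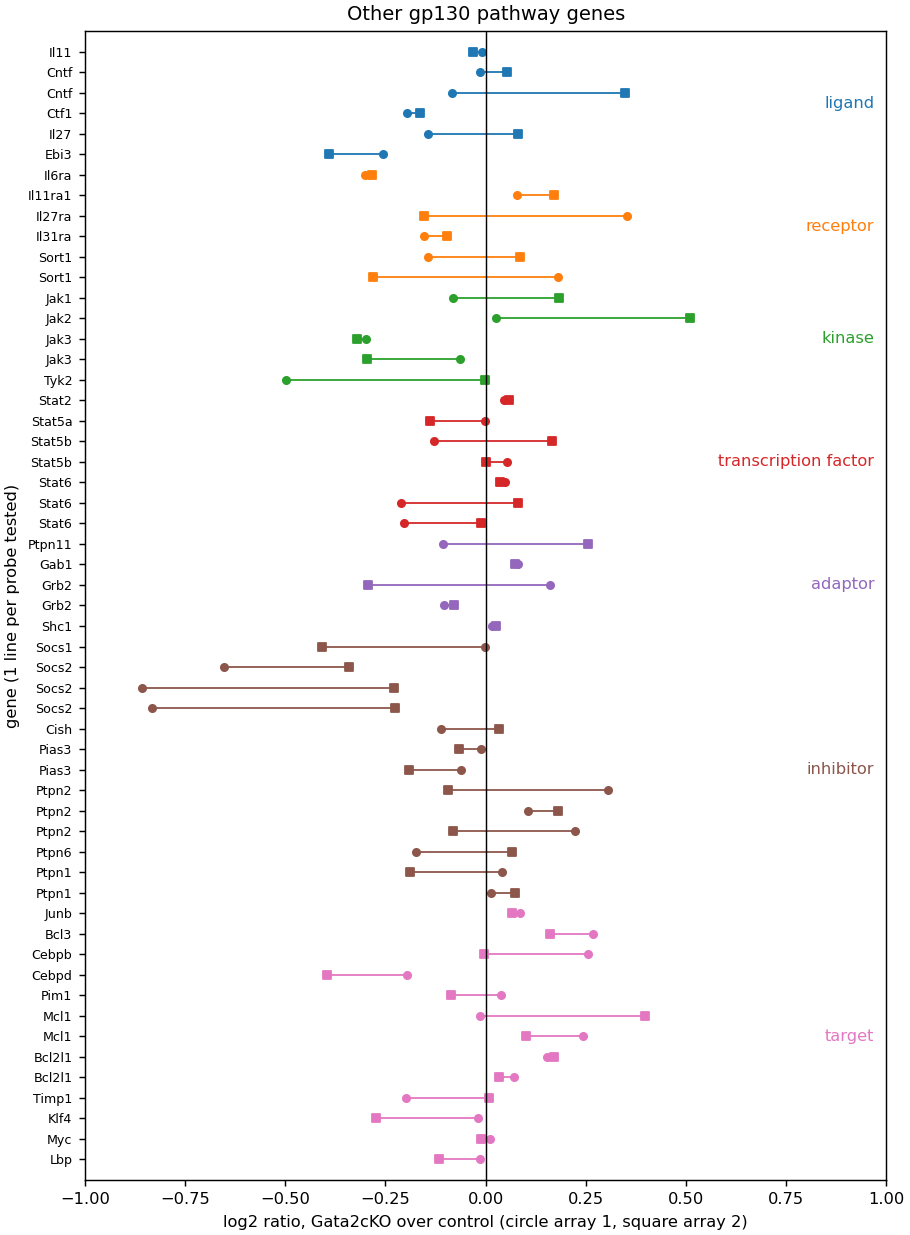
Log2 ratio of Gata2cKO over control for 55 tested probes of 40 other pathway genes, ordered by role, with array 1 as circles and array 2 as squares joined by a line. The 3 Socs2 probes reach the lowest values (-0.83 and -0.86 on array 1 for 2 of them), and 22 lines cross 0.

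Markers of cell types that could carry these receptors leaned in 1 direction for some types. Of all probes tested, 26.7% were lower and 26.5% higher on both arrays. By limma, 1 marker probe passed an adjusted p of 0.05, that of the neuron marker Prph (adjusted p = 0.0400, lower). The lowest limma adjusted p was 0.0564 for smooth muscle, 0.194 for skeletal muscle and 0.200 for macrophages. For mesenchyme, urothelium and endothelium it was 0.263, 0.596 and 0.659. Probes of neuron and glia markers were lower in the RNA labelled Gata2cKO on both arrays for 10 of 11, with summed intensities of 17962 and 16934 in Gata2cKO RNA, against 38193 and 27715 in control RNA. All 9 skeletal muscle probes were lower on both arrays, with sums of 10431 and 6834 in Gata2cKO RNA, against 14289 and 12356 in control RNA. All 6 smooth muscle probes were lower as well, with sums of 31552 and 26423 in Gata2cKO RNA, against 46586 and 50620 in control RNA. Macrophage markers were lower on both arrays for 8 of 9 probes, with sums of 27906 and 27436 in Gata2cKO RNA, against 37373 and 34872 in control RNA. Endothelial markers were mixed, with 1 of 7 probes higher and 2 lower on both arrays. Their sums were 53814 and 56014.5 in Gata2cKO RNA, against 60085 and 56018 in control RNA. Urothelial markers were higher on both arrays for 4 of 7 tested probes, with sums of 35912 and 37127 in Gata2cKO RNA, against 24085 and 33232 in control RNA. The brightest was Upk3a, with 19034 in Gata2cKO RNA and 10297.5 in control RNA on array 1. Most urothelial probes had a negative mean in the authors' deposited table, at -0.50 for Krt5, -0.44 for Shh, -0.31 for Upk2 and -0.015 for Upk1b. The Trp63 probes were at -0.32 and 0.062 there, and Upk3a at 0.22. Mesenchyme markers were higher on both arrays for 4 of 7 tested probes and lower for 1. Their sums were 165515 and 167956 in Gata2cKO RNA, against 153847 and 133982 in control RNA. In whole ureters, fewer cells of a type and less RNA per cell cannot be told apart. The part of these shifts in the values of Cntfr, the other members and the wider pathway was not tested.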

How the data were processed

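Spots of array design 026655 were quantified by the authors as linear intensity, per the file headers, with Agilent Feature Extraction 10.7.3.1 (also named in the submitters' processing notes), with probe coordinates on mm9. The deposited mean signal and median local background are linear intensity without normalization. The software's processed signals were detrended and dye-normalized, per the file headers, and the log10 ratio of red over green in the deposited files was not used. The authors' deposited table holds a signed fold change, a score whose median was 1 for either array, and was used on a log2 scale as an alternative.

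Background was corrected by normexp (offset 50) and ratios were normalized by loess within each array (span 0.3), giving no weight to control or outlier spots. The sign of array 2 was reversed, since its dyes were exchanged, to give Gata2cKO over control throughout. Outlier spots (255 on array 1, 178 on array 2) were left out, and spots of a probe averaged. The test covered probes that the software marked as well above background in Gata2cKO RNA of both arrays or in control RNA of both, on at least as many of a probe's spots as not. Ratios were tested against 0 with limma 3.58.1 in R 4.3.3, with 1 residual degree of freedom and a prior of 4.80 degrees of freedom (prior SD 0.164). Intensities printed were rebuilt from the loess ratio and the background-corrected mean brightness of a probe within an array. They were not normalized between arrays, so they compare the RNAs within an array, and the number of arrays limits the precision. The functions were tested on simulated arrays. RefSeq accessions of assembly GRCm38.p6 named 26412 probes, and 13017 kept the name in the file. Figures used Python 3.11.15 with matplotlib 3.10.9.

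The members and lists were chosen with earlier results of these data known. Named were all members. Of the pathway list, the rule named any gene past the threshold or at least 1.5-fold (none was), otherwise the ligand, receptor, kinase, transcription factor, inhibitor and target gene with the largest same-sign mean in absolute size, a few more ligands, receptors and kinases, and also the 5 probes nearest to Cntfr. Other genes were named after their values were seen. Not every gene of the list is reported here by name.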

Additional observations from a re-analysis of the deposited data

How the results depend on the processing

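The downstream Cntfr probe kept its direction in every setting from the scanner signals, with 1.61 from the software's processed signals and 0.84 as the mean over both probes. These settings reuse the same spots of a gene chosen by this ratio, and some, such as leaving out the detection filter, cannot change the ratio. The kept direction is therefore a description and no support. The downstream probe was -0.13 in the authors' deposited table, where the upstream probe was 0.45, and the cause was not tested. With a single array the downstream probe was between 1.49 and 1.58 and the upstream probe between 0.020 and 0.28. Of the other members, 0 probes passed under any alternative, nor did any pathway gene. In the deposited table the sign turned for Lifr variant 2 (0.016), Clcf1 (0.015), upstream Stat3 (-0.19) and Socs3 (-0.055). Over a gene's probes it turned for downstream Lifr (-0.047) and upstream Stat3 (-0.0082). Single arrays disagreed in sign for downstream Lifr (-0.060 to 0.35), Lifr variant 2 (-0.18 to 0.11), Osmr (-0.055 to 0.26), Clcf1 (-0.47 to 0.036), downstream Stat3 (-0.12 to 0.024) and upstream Stat3 (-0.059 to 0.13).

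Probes past the threshold by limma numbered 15, and 139 with processed signals, 35 with an offset of 16, 6 in the deposited table, 65 without the detection filter, 427 with a trended and robust variance and 23 over gene means. With median centring there were 0, with 628 at an unadjusted p under 0.05. Probes at least 1.5-fold on both arrays numbered 179 (73 higher, 106 lower), 341 with processed signals and 466 in the deposited table (250 higher, 216 lower), and a single array gave 849 to 888 at that size. Each ratio pairs the RNAs of an array, so the test against 0 is paired by array. No paired analysis was possible beyond that, with the replicate number as a block, because there is only 1 group of ratios. Lif was not well above background and has no ratio here.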

Other observations

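The Cntfr probes differed by a log2 ratio of 1.39, and the gene was chosen by the higher of these ratios, so the span is a description. Among 4321 genes with 2 or more tested probes, the median span between a gene's probes was 0.0872, and 3 genes, Cntfr included, spanned 1.39 or more. The others were Mapk8, with probe means of 0.17, 1.03 and 1.74, and 1810058I24Rik, with -0.055, -0.097 and -1.53. The last of these was -0.30 on array 1 and -2.75 on array 2, so its mean comes mostly from array 2. The span of Lifr (0.40) exceeded that of 97.1% of these genes, and that of Stat3 (0.083) that of 48.4%. Lifr has 3 tested probes, and a span can only widen with more probes. Its upper end is the downstream probe, at -0.060 on array 1 and 0.35 on array 2.

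Over all 25659 probes tested, 16849 had the same sign in the mean of the authors' deposited table and 8723 the opposite sign. The direction of that table was taken from its correlation with these ratios, so shared signs are partly given by that step. Of the 179 probes that reached 1.5-fold in a shared direction, 162 had the same sign in that mean and 17 did not. The 17 include the downstream Cntfr probe (1.54, with -0.13 in the authors' deposited table), a probe of the RNA helicase gene Ddx6 (2.16, with -0.20) and the Mapk8 probes with means of 1.03 and 1.74 (-0.16 and -0.41 in that table). Mapk8, 1810058I24Rik and Ddx6 were named after their values were seen.

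The string GGGAGGG, which the downstream Cntfr probe holds, was found in 158 of 39429 probe sequences as written (0.401%) and in 150 on the opposite strand (0.380%). The 98 tested probes with it as written had a median log2 ratio of -0.020, and 2 of them reached 1.5-fold in a shared direction, against 0.698% of all probes tested. The downstream Cntfr probe, chosen by its ratio, is 1 of these 2. The longer stretch that spans the capitals printed for this probe was found as written in 2 probes, the downstream Cntfr probe and 1 other, and the Cntfr probe alone of the pair reached that size. Both stretches were searched after the sequence was seen, and a match is a description of the probe alone.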
